A study of Mus musculus with 6 samples.

Results

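*Hspb8*, *Bag3* and 8 further heat shock genes (*Hspb1*, *Cryab*, *Hspa1a*, *Hspa1b*, *Dnajb1*, *Hsph1*, *Hsp90aa1* and *Hspa8*) were followed in endothelial cells (ECs) of the mouse spinal cord. These 10 genes, of 56748 in the count table, were chosen by name for their known roles, and they were selected on results of the same comparison, since the difference of *Hspb8* was already known. Their differences are therefore given as a description with no p value printed. How many of them pass a threshold is listed without a reading. The question was whether *Hspb8* rose alone or together with the other heat shock genes.

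RNA-Seq was performed on ECs sorted from the spinal cords of postnatal day 16 mice, with 3 control and 3 TDP-43iΔEC libraries. Control mice carried the floxed *Tardbp* gene without Cre (genotype Tardbpflox), and TDP-43iΔEC mice carried the floxed gene with a tamoxifen-inducible Cre (genotype Cdh5(PAC)-CreERT2;Tardbpflox). Mice of both groups received tamoxifen, as a 1 mg/mL solution, from P5 to P7. The Cre transgene is driven by the *Cdh5* promoter and acts in ECs of all organs, and because the control mice had no Cre, an effect of Cre itself and one of the deletion cannot be told apart. In both groups the tissue was digested warm with collagenase before the cells were sorted. The labels number the libraries within each group but do not name mice, and each library is taken here as 1 mouse. On that reading the spread between libraries includes biological variation.

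Small heat shock proteins such as HSPB8 bind unfolded proteins without using ATP. HSPB8 forms a complex with BAG3, a co-chaperone that links HSP70 to autophagy, and this complex sends misfolded proteins for degradation. The classical heat shock response is driven by the transcription factor HSF1, which binds inverted repeats of the letters GAA in promoters and induces HSP70, HSP110, HSP90, J proteins and small heat shock proteins together.

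*Hspb8* was higher in every TDP-43iΔEC mouse than in any control mouse, with a log2 fold change of 1.79, and *Bag3* differed by 0.50 with overlapping groups. Of the other heat shock genes, *Hsph1* and *Hspa1a* were also higher in every TDP-43iΔEC mouse, *Hspa8* was higher by a small margin, and *Hspb1*, *Cryab*, *Hspa1b*, *Dnajb1* and *Hsp90aa1* overlapped between the groups. The median log2 fold change of the 9 genes other than *Hspb8* was 0.45, compared with -0.02 for all 13107 genes tested.

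The 6 libraries held 25704871 to 47270654 counts, and the 2 smallest were those of TDP-43iΔEC mice 2 and 3. Genes with any count numbered 16557, 12972 and 16123 in control mice 1, 2 and 3. In TDP-43iΔEC mice 1, 2 and 3 they numbered 14473, 15379 and 14103, so control mouse 2 had the fewest. Levels are given in CPM, the count of a gene scaled to a library total common to all samples, after TMM scaling, a correction for differences in composition between libraries, and 3 counts corresponded to 0.0635 to 0.117 CPM. *Tardbp*, the deleted gene, was at 55.3, 61.9 and 58.5 CPM in control mice 1, 2 and 3 and at 26.6, 16.1 and 11.8 CPM in TDP-43iΔEC mice 1, 2 and 3. The summed level of 8 endothelial markers (*Cldn5*, *Pecam1*, *Kdr*, *Flt1*, *Vwf*, *Cdh5*, *Tek* and *Erg*) was 10435 to 13809 CPM in control and 9422 to 10940 CPM in TDP-43iΔEC mice, and none of the 8 was at 0. *Cldn5* was the largest part of this sum, with means of 6460 CPM in control and 5583 CPM in TDP-43iΔEC mice. *Kdr*, *Flt1* and *Tek* were lower in every TDP-43iΔEC mouse than in every control mouse, as were 7.93% of all genes tested. The other markers of the 8 overlapped between the groups. In bulk samples, fewer cells of a type and less RNA per cell cannot be told apart.

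*Hspb8* (ENSMUSG00000041548, chr5:116546409-116561084 of GRCm39, minus strand, 3 exons) encodes a small heat shock protein. It was at 32.9, 40.6 and 37.6 CPM in control mice 1, 2 and 3 and at 123, 146 and 117 CPM in TDP-43iΔEC mice 1, 2 and 3. The lowest TDP-43iΔEC value lay far above the highest control value, and the mice of each group were close to each other. The means were 37.0 ± 3.88 and 128 ± 15.3 CPM (SD, n = 3 each), and the log2 fold change was 1.79 with a standard error of 0.26. The pooled SD of *Hspb8* within groups was 0.161 on the log2 scale, compared with a median of 0.539 over the 8240 genes with a mean of at least 10 CPM. Of these 8240 genes, 459 had a larger log2 fold change than *Hspb8*. *Hspb8* was selected on this same comparison, which favours a large difference and a small spread. Nothing is therefore read from its place among the other genes.

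*Bag3* (ENSMUSG00000030847, chr7:128125283-128148705, plus strand, 4 exons) encodes the HSP70 co-chaperone that binds HSPB8. It was at 52.3, 71.8 and 51.1 CPM in control mice and at 75.0, 102.5 and 70.7 CPM in TDP-43iΔEC mice, given in mouse order here and for the genes that follow. Control mouse 2 was above TDP-43iΔEC mouse 3, so the groups overlapped. The means were 58.4 ± 11.6 and 82.8 ± 17.3 CPM (SD, n = 3 each), with a log2 fold change of 0.50 and a standard error of 0.28. Within each library the *Hspb8* count was lower than the *Bag3* count in all 3 control mice and higher in all 3 TDP-43iΔEC mice. The mean log2 ratio of *Hspb8* to *Bag3* was -0.64 ± 0.19 in control and 0.65 ± 0.12 in TDP-43iΔEC mice (SD, n = 3 each), a difference of 1.29. This ratio compares counts within a library and does not depend on how libraries are scaled.

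**Figure D1:**
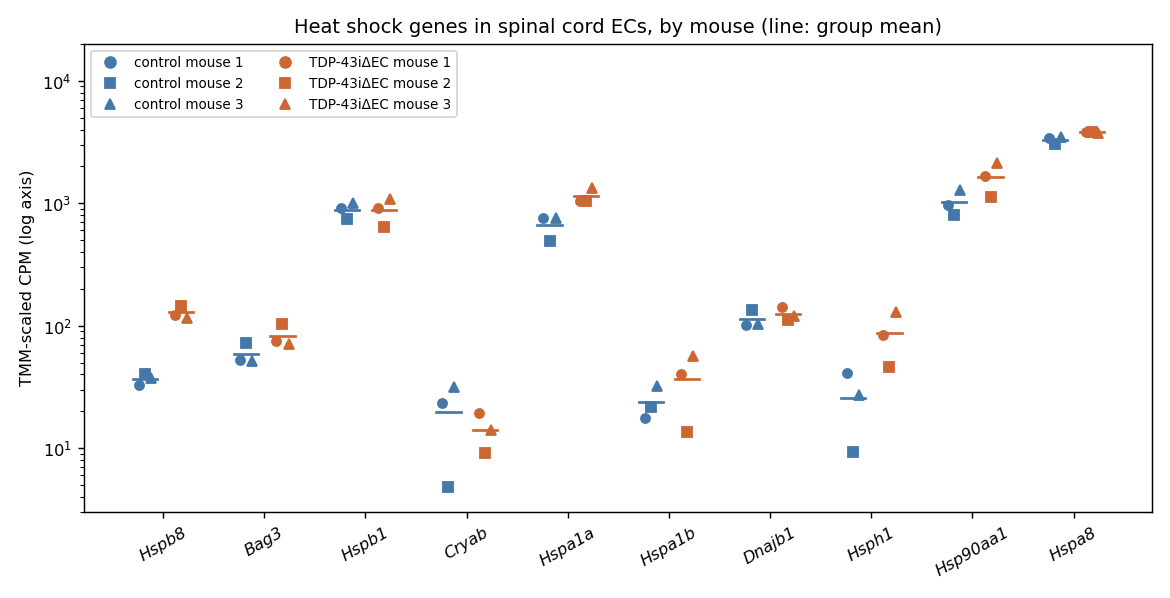
Level of each of the 10 genes in TMM-scaled CPM (log axis) in 3 control mice (blue) and 3 TDP-43iΔEC mice (orange), with a symbol for each mouse number and a line at the group mean. *Hspb8* lay at 32.9 to 40.6 CPM in control and 117 to 146 CPM in TDP-43iΔEC mice, while *Bag3*, *Hspb1*, *Cryab*, *Hspa1b*, *Dnajb1* and *Hsp90aa1* overlapped between the groups.

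The sequences in front of these genes were read because HSF1 binds such elements, and they show which of the genes carry a pair of facing GAA units close to the transcript start. The 250 bases before the annotated start of each gene's canonical transcript were searched on both strands for GAANNTTC and TTCNNGAA, where N is any base, and the windows of *Hspb8* and *Bag3* held neither. Both windows are printed whole, 5′ to 3′ on the strand of the gene and ending at the base before the start, with no capitals because no match was found. That of *Hspb8* is chr5:116561085-116561334 (minus strand) and that of *Bag3* is chr7:128125033-128125282 (plus strand), both in GRCm39.
Hspb8: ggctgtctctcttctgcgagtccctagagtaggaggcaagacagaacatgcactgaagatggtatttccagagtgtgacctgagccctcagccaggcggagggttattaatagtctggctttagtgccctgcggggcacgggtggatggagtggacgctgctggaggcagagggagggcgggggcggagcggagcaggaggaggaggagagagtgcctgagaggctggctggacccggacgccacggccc
Bag3: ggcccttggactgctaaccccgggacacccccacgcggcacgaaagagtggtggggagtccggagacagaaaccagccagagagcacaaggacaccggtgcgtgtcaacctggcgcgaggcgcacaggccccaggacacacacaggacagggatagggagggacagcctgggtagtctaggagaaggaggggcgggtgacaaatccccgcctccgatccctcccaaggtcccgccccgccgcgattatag

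A match was present in 5 of the 10 windows, those of *Hspb1* (at 2 places), *Cryab*, *Hspa1a*, *Hspa1b* and *Hsph1*, and in 12.3% of the windows of 21757 protein-coding genes. The matches are shown in capitals with the bases around them, to set them beside the measured differences. They lie at chr5:135916646-135916693 (plus strand) for *Hspb1*, chr9:50664138-50664165 (plus strand) for *Cryab*, chr17:35191219-35191246 (minus strand) for *Hspa1a*, chr17:35178301-35178328 (minus strand) for *Hspa1b* and chr5:149559817-149559844 (minus strand) for *Hsph1*.
Hspb1: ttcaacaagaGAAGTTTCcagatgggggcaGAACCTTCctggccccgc
Cryab: ctaagcctagGAAGATTCcagtccctgc
Hspa1a: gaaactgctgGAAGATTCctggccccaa
Hspa1b: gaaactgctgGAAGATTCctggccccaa
Hsph1: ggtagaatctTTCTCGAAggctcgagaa

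The windows around the *Hspa1a* and *Hspa1b* matches are identical. The matches lie 104 to 97 and 84 to 77 bases before the start in *Hspb1*, 39 to 32 in *Cryab*, 104 to 97 in *Hspa1a* and *Hspa1b*, and 28 to 21 in *Hsph1*. No window of the 10 genes held 3 alternating units in a row, which 0.349% of all windows did. The 5 genes with a match had log2 fold changes of -0.04 (*Hspb1*), -0.09 (*Cryab*), 0.77 (*Hspa1a*), 0.45 (*Hspa1b*) and 1.83 (*Hsph1*). The other 5 had values of 1.79 (*Hspb8*), 0.50 (*Bag3*), 0.16 (*Dnajb1*), 0.65 (*Hsp90aa1*) and 0.20 (*Hspa8*). High and low values thus occurred with and without a match. A match describes letters in this window and is no evidence of a bound site, and the lack of one says nothing of elements elsewhere.

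**Figure D2:**
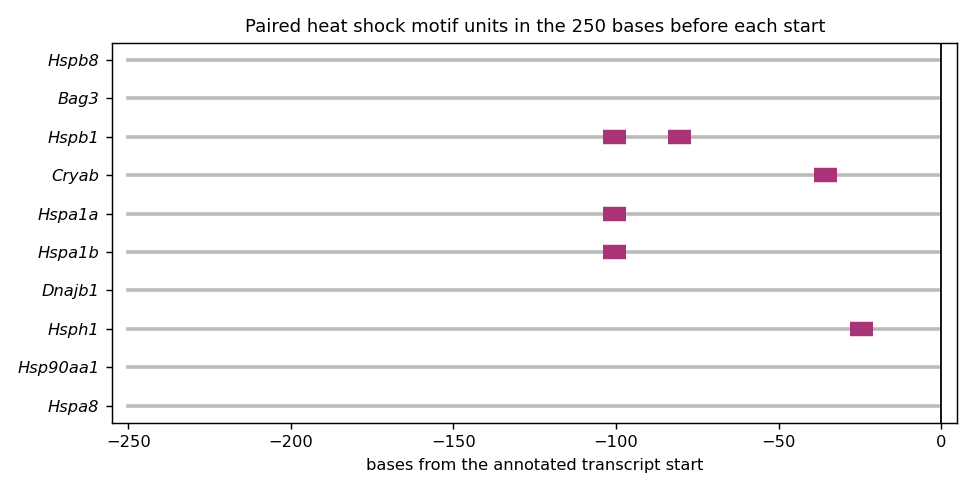
Position of GAANNTTC or TTCNNGAA matches (purple blocks) in the 250 bases before the annotated start of each of the 10 genes (grey lines), with the distance from the start in bases on the x axis. *Hspb1* has 2 blocks, *Cryab*, *Hspa1a*, *Hspa1b* and *Hsph1* have 1 each, and *Hspb8*, *Bag3*, *Dnajb1*, *Hsp90aa1* and *Hspa8* have none.

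*Hspb1* and *Cryab*, the other small heat shock protein genes of the 10, overlapped between the groups. *Hspb1* (ENSMUSG00000004951, chr5:135916760-135918417, plus strand) encodes HSP25, the abundant small heat shock protein that protects actin filaments. It was at 912, 738 and 999 CPM in control and 914, 638 and 1080 CPM in TDP-43iΔEC mice, so the control range lay inside the TDP-43iΔEC range. The means were 883 ± 133 and 878 ± 223 CPM (SD, n = 3 each) and the log2 fold change was -0.04 with a standard error of 0.20, its sign turning to 0.16 with scaling by library size only and to 0.20 with scaling to the 8 endothelial markers. Relative to the median of all genes tested, which these scalings move as well, *Hspb1* was at -0.02, -0.02 and -0.03 in the 3 cases. *Cryab* (ENSMUSG00000032060, chr9:50651859-50668567, plus strand) encodes alpha-B-crystallin, a small heat shock protein of lens, muscle and glia. It was at 23.3, 4.78 and 31.3 CPM in control and 19.2, 9.05 and 14.2 CPM in TDP-43iΔEC mice. Mouse 2 was the lowest in each group, and the whole TDP-43iΔEC range lay inside that of the controls. The log2 fold change was -0.09 with a standard error of 0.81, and it ranged from -0.93 without control mouse 2 to 0.43 without control mouse 3.

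*Cryab* is also made by oligodendrocytes and astrocytes, and markers of these cells differed between libraries. All 7 oligodendrocyte markers were detected in at least 1 library, and their sum was 305 to 609 CPM in control mice and 496, 53.9 and 15.5 CPM in TDP-43iΔEC mice 1, 2 and 3. *Mog* and *Mag*, defining genes of myelin, were at 0 in TDP-43iΔEC mice 2 and 3. The 6 astrocyte markers, all detected in at least 1 library, summed to 233 to 267 CPM in control and 130 to 177 CPM in TDP-43iΔEC mice, mostly from *Gja1*, which ECs also express. *Aqp4*, a defining astrocyte gene, was at 0 to 2.54 CPM in control mice and at 0 in all TDP-43iΔEC mice. The 9 mural markers, none at 0 in all libraries, summed to 547 to 914 CPM in control and 398 to 944 CPM in TDP-43iΔEC mice, with overlapping ranges. The 5 erythroid markers, none at 0 in any library, summed to 6935 to 10576 CPM in control and 2034 to 2884 CPM in TDP-43iΔEC mice. The sums over 5 neuronal, 7 microglia and macrophage and 4 fibroblast markers reached at most 25.0 CPM in any library, with *Adgre1* at 0 in all 6. The part of these cells in the values of the 10 genes was not tested.

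Of the 3 HSP70 genes among the 10, *Hspa1a* had the largest log2 fold change. *Hspa1a* (ENSMUSG00000091971, chr17:35188166-35191132, minus strand, 1 exon) and *Hspa1b* (ENSMUSG00000090877, chr17:35175412-35178214, minus strand, 1 exon) encode nearly identical copies of the stress-inducible HSP70. *Hspa1a* was at 752, 495 and 752 CPM in control and 1041, 1037 and 1337 CPM in TDP-43iΔEC mice. The groups did not overlap. Its means were 666 ± 148 and 1138 ± 172 CPM (SD, n = 3 each), a log2 fold change of 0.77 with a standard error of 0.19. With each mouse left out it ranged from 0.56, without control mouse 2, to 0.86. *Hspa1b* was at 17.7, 21.7 and 32.5 CPM in control and 40.3, 13.6 and 57.1 CPM in TDP-43iΔEC mice. TDP-43iΔEC mouse 2 was the lowest of all 6 libraries and the other 2 TDP-43iΔEC mice were the highest, giving a log2 fold change of 0.45 with a standard error of 0.56, which ranged from 0.17 to 0.98 with each mouse left out. At the read length of 51 bases, 60.1% of the sequence of *Hspa1a* and 62.0% of that of *Hspa1b* occurs in other genes, mainly in each other, so the division of reads between them is uncertain. The sum of both was 770, 517 and 784 CPM in control and 1081, 1050 and 1395 CPM in TDP-43iΔEC mice, without overlap, and its log2 fold change was 0.76 with a standard error of 0.19.

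*Hspa8* (ENSMUSG00000015656, chr9:40711630-40731039, plus strand, 9 exons in the canonical transcript) encodes HSC70, the HSP70 that cells make without stress. It was at 3404, 3045 and 3474 CPM in control and 3789, 3841 and 3781 CPM in TDP-43iΔEC mice. Every TDP-43iΔEC mouse was above every control mouse, but the step was small. The means were 3308 ± 230 and 3804 ± 32.4 CPM (SD, n = 3 each) and the log2 fold change was 0.20 with a standard error of 0.08, or 0.39 with scaling by library size only and 0.45 with scaling to the endothelial markers. Of the *Hspa8* sequence, 16.9% is shared with 194 other annotated genes.

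Among the partners of HSP70, *Hsph1* had a log2 fold change as high as that of *Hspb8* but a far wider spread. *Hsph1* (ENSMUSG00000029657, chr5:149537636-149560156, minus strand, 18 exons) encodes HSP110, which exchanges the nucleotide of HSP70 and helps to dissolve aggregates. It was at 40.8, 9.32 and 27.3 CPM in control and 83.9, 46.1 and 130 CPM in TDP-43iΔEC mice. The groups did not overlap, although control mouse 1 and TDP-43iΔEC mouse 2 were close. The means were 25.8 ± 15.8 and 86.7 ± 42.1 CPM (SD, n = 3 each) and the log2 fold change was 1.83 with a standard error of 0.59. It ranged from 1.23 without control mouse 2 to 2.28 without control mouse 1, and the pooled SD of *Hsph1* was 0.942 on the log2 scale.

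*Dnajb1* (ENSMUSG00000005483, chr8:84334811-84339820, plus strand) encodes HSP40, the inducible J protein that delivers substrates to HSP70. It was at 101, 135 and 104 CPM in control and 141, 112 and 119 CPM in TDP-43iΔEC mice, with overlapping groups. The log2 fold change was 0.16 with a standard error of 0.23, or 0.40 with scaling to the endothelial markers. *Hsp90aa1* (ENSMUSG00000021270, chr12:110656842-110669166, minus strand) encodes the inducible form of HSP90, which matures kinases and steroid receptors. It was at 973, 802 and 1289 CPM in control and 1658, 1129 and 2123 CPM in TDP-43iΔEC mice. TDP-43iΔEC mouse 2 lay below control mouse 3, so the groups overlapped, and the log2 fold change was 0.65 with a standard error of 0.24. With each mouse left out it ranged from 0.49, without control mouse 2, to 0.86. Of the *Hsp90aa1* sequence, 33.9% is shared with 5 other genes, and 40.5% of *Hspb1* with the pseudogene *Hsp25-ps1*.

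**Figure D3:**
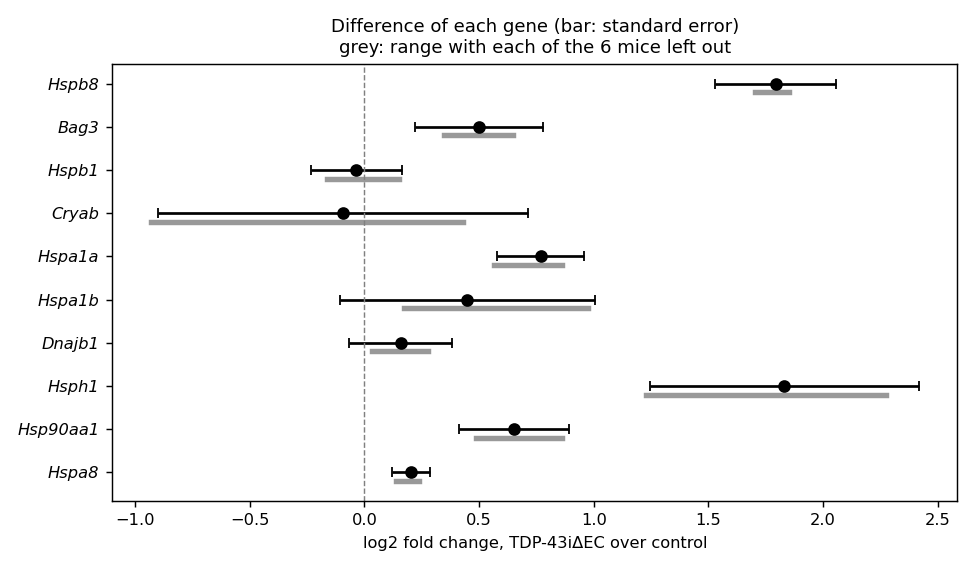
Log2 fold change of each of the 10 genes, TDP-43iΔEC over control (x axis), with points at the limma estimate and black bars for the standard error, and grey bars for the range with each of the 6 mice left out. *Hspb8* stays between 1.70 and 1.85 when a mouse is left out, while *Hsph1* ranges from 1.23 to 2.28 and *Cryab* spans 0.

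Counted over the 10 genes, 4 (*Hspb8*, *Hspa1a*, *Hsph1* and *Hspa8*) were higher in every TDP-43iΔEC mouse than in every control mouse, and none was lower in every one. Of all 13107 genes tested, 7.4% had every TDP-43iΔEC mouse above every control mouse and 7.93% had every one below. In the limma fit, 0 of the 10 genes passed the threshold of an adjusted p under 0.05, as did 0.0305% of all genes tested in the higher and 0.107% in the lower direction. At an unadjusted p under 0.05, 5 of the 10 were higher and 0 lower (4.26% and 5.0% of all genes tested), edgeR's quasi-likelihood test passed 0 and DESeq2 passed 2, *Hspb8* and *Hspa1a* (0.801% of all genes tested, higher). All 10 genes passed the filter on low counts. Since the genes were chosen with this comparison in view, nothing is read from these counts.

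Of the 9 genes other than *Hspb8*, 7 had a log2 fold change above 0. Their median of 0.45 fell to 0.25 without control mouse 1, to 0.20 without TDP-43iΔEC mouse 1 and to 0.21 without TDP-43iΔEC mouse 3, but stayed above 0. Scaling by library size only and scaling to the endothelial markers moved the median of all genes tested to 0.18 and 0.23. Relative to that median, *Hspb8* was at 1.80 and 1.83 and the 9 other genes had medians of 0.48 and 0.46, with 7 of 9 above it in each case.

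The ratio of *Hspb8* to each of the others within a library gave a view free of scaling. *Hspb8* gained on 7 of the 9 genes in every TDP-43iΔEC mouse compared with every control mouse. The difference in mean log2 ratio was 1.82 against *Hspb1*, 1.66 against *Dnajb1*, 1.59 against *Hspa8*, 1.35 against *Hspa1b*, 1.29 against *Bag3*, 1.13 against *Hsp90aa1* and 1.00 against *Hspa1a*. Against *Cryab* the difference was 1.96, but control mouse 2 overlapped with the TDP-43iΔEC mice. Against *Hsph1* it was -0.07, with ratios of 0.76 ± 1.24 in control and 0.68 ± 0.92 in TDP-43iΔEC mice (SD, n = 3 each). *Hsph1* was thus the one gene of the 9 over which *Hspb8* had no gain in the mean ratio. Because *Hspb8* was selected on its difference in this comparison, gains over genes that change less follow from that choice. The share of all genes tested over which it gained was not counted, so nothing is read from the 7 of 9.

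**Figure D4:**
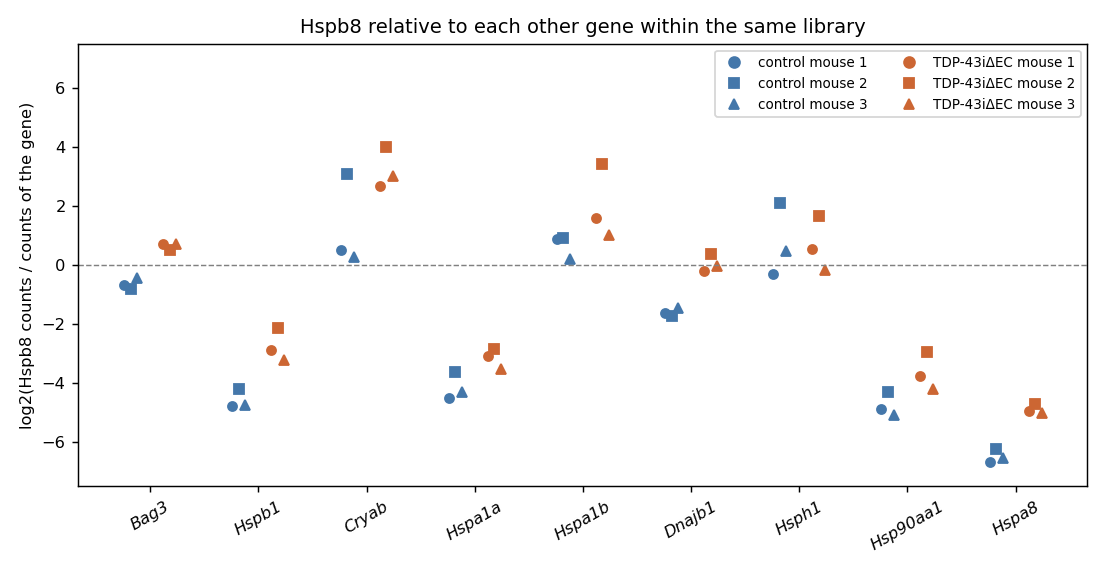
Log2 ratio of the *Hspb8* count to the count of each of the 9 other genes (y axis) in the same library, for 3 control mice (blue) and 3 TDP-43iΔEC mice (orange). The ratio to *Bag3* goes from a mean of -0.64 in control to 0.65 in TDP-43iΔEC mice, and only the ratios to *Cryab* and *Hsph1* overlap between the groups.

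To compare levels between genes, CPM were divided by the length of the canonical transcript in kilobases (CPM per kb). In control mice the order was *Hspa8* (1382 ± 96.1 CPM per kb), *Hspb1* (964 ± 145), *Hsp90aa1* (289 ± 70.0), *Hspa1a* (225 ± 49.9), *Dnajb1* (32.1 ± 5.37), *Bag3* (22.3 ± 4.43), *Hspb8* (17.5 ± 1.83), *Cryab* (11.7 ± 8.06), *Hspa1b* (8.55 ± 2.74) and *Hsph1* (4.18 ± 2.56), each as mean and SD of 3 mice. The values per mouse overlapped between *Hsp90aa1* and *Hspa1a*, between *Hspb8* and *Cryab*, between *Cryab* and *Hspa1b*, and between *Hspa1b* and *Hsph1*, and did not overlap between the other neighbours in this order. In TDP-43iΔEC mice *Hspb8* was at 60.6 ± 7.20 CPM per kb and stood above *Dnajb1* (35.1 ± 4.35) and *Bag3* (31.6 ± 6.60) in every mouse, but below *Hspa1a* (384 ± 58.1). *Hspb8* thus moved from just below *Bag3* to above it, while *Hspa8* (1589 ± 13.5) and *Hspb1* (958 ± 244) remained the most abundant of the 10.

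The genes whose pattern over the 6 libraries was most like that of *Hspb8* were not heat shock genes. Likeness was measured as the root mean square difference of log2 CPM, each gene centred on its own mean. The closest were *Tnf*, a cytokine gene (0.19), *Cks1b* (0.19), *Tmem185b* (0.20), *Col3a1*, a collagen (0.23), *Mylk*, myosin light chain kinase (0.25), *Rps23rg1* (0.26), *Adm*, adrenomedullin (0.28), *Angpt2*, angiopoietin-2 (0.29), *Icam1*, an adhesion molecule (0.29), and *Cks2* (0.30). *Rps23rg1* was under 0.5 CPM in every library. Of the other heat shock genes, *Hspa1a* (0.61) ranked 243 and *Bag3* (0.66) ranked 411 among the genes tested, and *Hsp90aa1* ranked 617. *Hsph1*, with its wide spread between mice, ranked 2094 and *Cryab* 7395. The measure rests on 6 libraries and largely reflects the size of the group difference.

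The wider chaperone system was described through 8 lists of further chaperone and partner genes, mostly of the cytosol. Together they held 75 genes, 65 of them tested. In limma 0 of the 65 passed the threshold in either direction, compared with 0.0305% of all genes tested in the higher and 0.107% in the lower direction. At an unadjusted p under 0.05, 5 were higher and 2 lower, compared with 4.26% and 5.0% of all genes tested. edgeR passed 0 and DESeq2 passed 2, *Flnc* and *Sqstm1*, both higher, compared with 0.801% of all genes tested passing as higher in DESeq2. The log2 fold change was above 0 for 36 and below 0 for 29 genes, with a median of 0.05, beside 49.3% above 0 and a median of -0.02 for all genes tested. Every TDP-43iΔEC mouse was above every control mouse for 7 of the 65 genes and below for 6, compared with 7.4% and 7.93% of all genes tested.

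The heat shock factor genes overlapped between the groups. *Hsf1*, the main driver of the heat shock response, was at 40.2, 37.8 and 24.4 CPM in control and 28.1, 40.1 and 24.5 CPM in TDP-43iΔEC mice, with a log2 fold change of -0.14 (SE 0.38, limma adjusted p = 0.925). Of the 6 genes of this list, *Hsf2* and *Hsbp1* were also tested and did not pass, and *Hsf3*, *Hsf4* and *Hsf5* were left out by the filter on low counts. These are mRNA levels, and HSF1 is regulated mainly as a protein.

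Of 7 further small heat shock protein genes, 2 were tested and neither passed. *Hspb2* was at 0.886, 0 and 0.711 CPM in control and 1.23, 3.56 and 0.925 CPM in TDP-43iΔEC mice, without overlap (log2 fold change 3.00, SE 2.22, limma adjusted p = 0.672). *Hspb6* was at 0 in 1 mouse of each group. *Cryaa*, *Hspb3* and *Odf1* had no counts in any library, and *Hspb7* and *Hspb9* stayed under 1 CPM. *Hspb8*, *Hspb1* and *Cryab* were therefore the small heat shock protein genes with levels well above the count floor in all 6 libraries.

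All 5 further BAG family genes were tested, and 0 passed, with a median log2 fold change of 0.55 and overlapping groups for each. *Bag1*, a nucleotide exchange factor of HSP70, was at 31.0, 55.8 and 35.3 CPM in control and 69.4, 58.2 and 50.6 CPM in TDP-43iΔEC mice (log2 fold change 0.62, SE 0.33, limma adjusted p = 0.58). *Bag5* had a log2 fold change of 0.55, with an SE of 0.39 and a limma adjusted p of 0.652. *Bag2* and *Bag6* had values of 0.06 and -0.20, compared with 0.50 for *Bag3*.

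Of 8 further HSP70 and HSP110 genes, 7 were tested and 0 passed, with a median log2 fold change of 0.04. *Hspa4*, an HSP110 relative of *Hsph1*, was at 64.0, 47.5 and 78.3 CPM in control and 138.5, 62.8 and 99.3 CPM in TDP-43iΔEC mice, with overlapping groups. *Hspa12a* was the one gene of this list lower in every TDP-43iΔEC mouse, at 0.979, 15.4 and 9.54 CPM in control and 0, 0.353 and 0 CPM in TDP-43iΔEC mice (limma adjusted p = 0.471). Of 14 further J protein genes, 13 were tested and 0 passed, with a median of 0.26. *Dnajb6*, which holds back aggregation, was the one of these higher in every TDP-43iΔEC mouse, at 50.9, 50.5 and 53.0 against 55.0, 80.9 and 91.0 CPM (limma adjusted p = 0.622). Among all genes tested, 7.4% were higher and 7.93% lower in every TDP-43iΔEC mouse.

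HSP90 and its co-chaperones (16 genes, all tested, 0 passed) had a median log2 fold change of 0.05. *Hsp90ab1*, the constitutive form of HSP90, was at 2138, 1846 and 1677 CPM in control and 2201, 2098 and 2007 CPM in TDP-43iΔEC mice, with overlapping groups and a log2 fold change of 0.17. *Stub1* encodes CHIP, the ubiquitin ligase that works with HSP70 and BAG3. It was at 99.0, 66.3 and 88.0 CPM in control and 38.0, 61.1 and 35.6 CPM in TDP-43iΔEC mice, without overlap, and did not pass (log2 fold change -0.95, SE 0.32, limma adjusted p = 0.441). *Unc45a* was also below in every TDP-43iΔEC mouse and *Cacybp* above. The TRiC chaperonin, which folds actin and tubulin, had all 8 subunits tested and 0 passing, with a median of 0.05. *Cct3* and *Cct6a* were higher and *Cct7* lower in every TDP-43iΔEC mouse. Among all genes tested, 7.4% were higher and 7.93% lower in every TDP-43iΔEC mouse.

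Partners of BAG3 in autophagy (11 genes, all tested, 0 passed in limma) had a median log2 fold change of -0.16. *Sqstm1* encodes p62, the receptor that carries ubiquitinated protein to autophagosomes. It was at 618, 441 and 534 CPM in control and 1102, 948 and 766 CPM in TDP-43iΔEC mice, without overlap, with a log2 fold change of 0.85 (SE 0.18, limma adjusted p = 0.223). *Flnc* encodes filamin C, a substrate of the BAG3 and HSPB8 complex in muscle. It was at 0.140, 0 and 0 CPM in control and 2.57, 4.27 and 17.8 CPM in TDP-43iΔEC mice, without overlap (limma adjusted p = 0.355). *Synpo2*, a BAG3 ligand in muscle, was lower in every TDP-43iΔEC mouse, at 14.6, 11.7 and 26.7 against 3.95, 7.03 and 0 CPM (limma adjusted p = 0.555). *Hdac6*, *Lamp2* and both *Map1lc3* genes overlapped between the groups. In this list 2 genes were higher and 2 lower in every TDP-43iΔEC mouse, beside 7.4% and 7.93% of all genes tested.

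Mitochondrial and endoplasmic reticulum chaperones were set beside these lists. Of 10 mitochondrial chaperone and protease genes, all tested, 0 passed and the median log2 fold change was 0.43. It was above 0 for 9 of them, beside 49.3% of all genes tested. In this list 1 gene was higher and 1 lower in every TDP-43iΔEC mouse, beside 7.4% and 7.93% of all genes tested. *Hspd1*, which encodes HSP60, was at 54.0, 32.0 and 59.4 CPM in control and 38.9, 77.0 and 103 CPM in TDP-43iΔEC mice, with overlapping groups. All 14 genes of the endoplasmic reticulum list had a log2 fold change above 0, with a median of 0.53, and 9 were higher in every TDP-43iΔEC mouse, beside 49.3% above 0 and 7.4% higher in every TDP-43iΔEC mouse among all genes tested. *Hspa5* encodes BiP, the HSP70 of the endoplasmic reticulum, and was the one gene of all 101 tested in the 11 lists that passed in limma. It rose from 614, 619 and 551 CPM in control to 1086, 1260 and 1133 CPM in TDP-43iΔEC mice (log2 fold change 0.96, SE 0.13, limma adjusted p = 0.0318). It did not pass in edgeR, with scaling to the endothelial markers or when any 1 mouse was left out.

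Immediate early genes, which are switched on within minutes by stress and by the handling of cells, were listed because both groups went through the same warm digestion. All 12 were tested and 0 passed, all 12 had a log2 fold change above 0, beside 49.3% of all genes tested, and the median was 0.41. *Jun*, *Atf3*, *Ier3* and *Zfp36* were higher in every TDP-43iΔEC mouse, as were 7.4% of all genes tested. *Fos* was at 781, 484 and 849 CPM in control and 952, 617 and 940 CPM in TDP-43iΔEC mice, with overlapping groups. The part of cell handling in the values of the 10 genes was not tested.

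**Figure D5:**
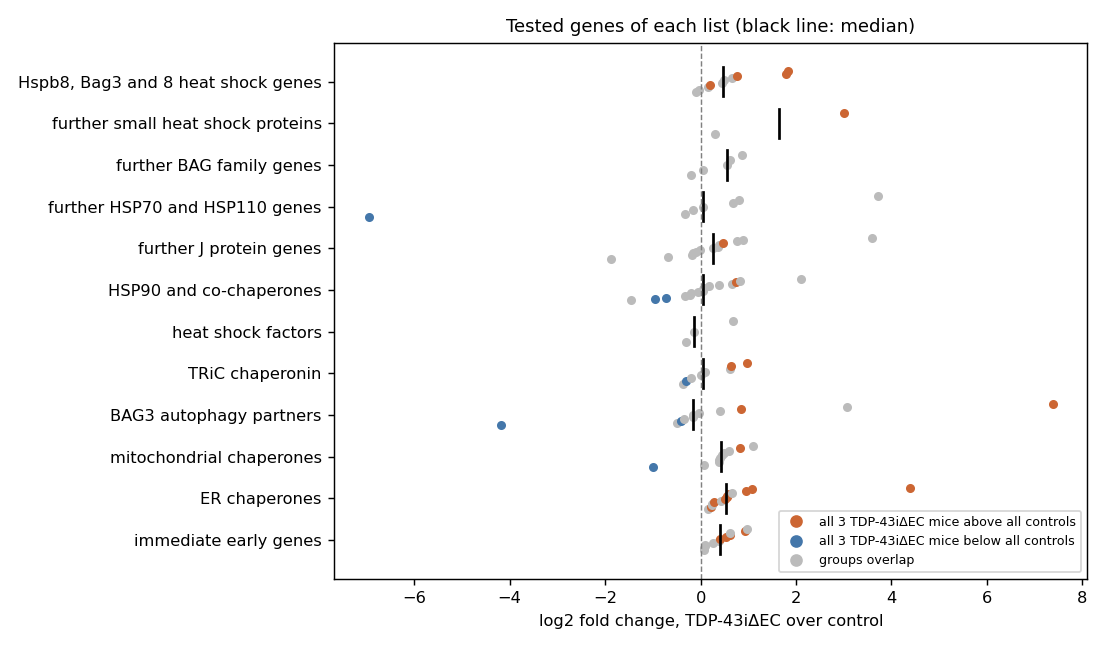
Log2 fold change, TDP-43iΔEC over control (x axis), of each tested gene of the 10 genes described and of 11 lists of chaperone, partner and immediate early genes (rows), with a black line at the median of each. Orange points are genes with all 3 TDP-43iΔEC mice above all controls, blue points those with all below and grey points those that overlap, and the endoplasmic reticulum list has 9 orange points of 14 and a median of 0.53.

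Counting did not use strand, and exons of some of the 10 genes overlap those of genes on the opposite strand, whose reads could not be separated. The overlap covers 9.95% of the exonic sequence of *Hspb8*, with *Gm42009*, and 18.6% of that of *Bag3*, with *4921520J07Rik*. It is largest in *Cryab*, at 42.2%, which faces *Hspb2* and 3 further annotated genes. *Hspb1*, *Hspa1b* and *Dnajb1* have no such overlap.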

How the data were processed

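The authors aligned paired reads of SMARTseq2 libraries to GRCm39 with STAR 2.7.8a and quantified GENCODE M30 genes with RSEM 1.3.0, using versions given in the submitters' processing notes. The deposited values are the expected counts that the authors estimated per gene with RSEM, unscaled and unfiltered, and 0 of them were not whole. SMARTseq2 amplifies cDNA by PCR without molecular identifiers, so counts are not independent molecules and the count floor covers counting error only. No strand is kept.

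From these counts, 6 libraries (3 per group, as labelled) were compared in R 4.3.3 with limma 3.58.1 (voom, empirical Bayes), TMM scaling and filterByExpr of edgeR 4.0.16, with no covariates, and Benjamini-Hochberg adjustment over the 13107 genes tested. The study's methods name limma with voom. log2 CPM used a prior count of 0.5. Alternatives were edgeR's quasi-likelihood test, DESeq2 1.42.0, other scalings, sample quality weights, other low-count filters, ribosomal RNA, hemoglobin and mitochondrially encoded genes left out, a replicate block, and each mouse left out. The procedures were tested on simulated counts, in which limma passed only a minority of the genes given a change. A gene that did not pass may therefore still differ between the groups.

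Named genes are the 10 members, genes of a list where it is described, the 10 genes most like *Hspb8*, and *Tardbp*. The members and lists were chosen with earlier results of these data known. Positions, lengths and promoters came from GENCODE M39 on GRCm39, which matched 98.7% of identifiers. Levels per kb used the canonical transcript in place of the planned exonic length, and promoters were read from GRCm39 in place of the planned RefSeq windows, which are on another build. Protein sequences were not used here. Of the list genes that meet the rule for named genes, 1 is not reported here.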

Additional observations from a re-analysis of the deposited data

How the results depend on the processing

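*Hspb8* stayed higher in all 16 alternatives, at 1.70 to 2.06 on the log2 scale. The largest values came from library size only (1.98) and endothelial marker scaling (2.06), and leaving out a mouse gave 1.70 to 1.85. *Hspb8* passed an adjusted p under 0.05 with DESeq2, quality weights, no low-count filter and at least 10 counts per library, and in no other setting. Since *Hspb8* was chosen on this same comparison, nothing is read from where it passed. The median of the other 9 genes was 0.65 with library size only, 0.69 with endothelial marker scaling, 0.25 with quality weights and 0.20 to 0.43 with a mouse left out. Genes past the threshold numbered 18 (4 higher, 14 lower) in limma. The number was 0 in edgeR (848 at an unadjusted p under 0.05), 247 in DESeq2 (105 higher, 142 lower), 10 with library size only (4 higher, 6 lower), 1 with endothelial marker scaling (higher), 76 without a low-count filter (27 higher, 49 lower), 39 with at least 10 counts in every library and 0 to 13 with a mouse left out. The 0 arose without TDP-43iΔEC mouse 1 (960 at an unadjusted p under 0.05). Of the list genes, 1 passed in limma (*Hspa5*), 0 in edgeR, 3 in DESeq2, 0 with endothelial marker scaling and 0 with any mouse left out. With the replicate number as a block, 22 genes passed and *Hspb8* was at 1.80. Deviations of same-numbered mice had correlations of -0.06, -0.13 and -0.03, so the numbers gave no sign of pairing, and no control mouse correlated best with its own number. The causes of these changes were not tested. Groups of 3 limit every value.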

Other observations

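TDP-43iΔEC mouse 1 was the one library with counts for the Y-linked gene *Ddx3y* (7421), and it had 0 for *Xist*. The other 5 libraries held 10087 to 30632 counts for *Xist* and 0 for *Ddx3y*. Leaving out TDP-43iΔEC mouse 1 lowered the median log2 fold change of the 9 genes other than *Hspb8* to 0.20 and left that of *Hspb8* at 1.83. The sex-linked genes were chosen after their values were seen.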
